A study of Mus musculus with 8 samples.

Results

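Major histocompatibility complex (MHC) class II genes were followed in mouse bone marrow-derived macrophages, primary cells expanded from marrow with the growth factor M-CSF. The set was a list of 10 gene symbols looked up in the deposited gene table, and 9 of the 10 had a row among its 11541 genes. These were H2-Aa, H2-Ab1, H2-Eb1, Cd74, H2-DMa, H2-DMb1, H2-DMb2, H2-Ob and Ciita, while H2-Oa was not analysed here. The study set 4 libraries of macrophages labelled Ogfrl1 knockout (KO) against 4 labelled wild type (WT), sequenced in bulk as polyadenylated RNA. All 8 cultures began as non-adherent marrow cells and were kept for 4 days in 25 ng/mL of M-CSF. The labels give the genotype of Ogfrl1, a gene related to the opioid growth factor receptor, without allele, strain or age, and do not say whether each library came from its own animal. The spread that enters each p-value is thus one between libraries and may be partly technical.

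MHC class II molecules are pairs of an α and a β chain that carry peptides from endocytosed protein to the cell surface, where CD4+ T cells read them. The invariant chain fills the groove of new class II molecules until it is cut away, and the DM and DO proteins then govern the exchange of its last fragment for peptide. Transcription of these genes depends on the coactivator CIITA, which does not bind DNA itself but is recruited by factors that sit on the X and Y boxes of their promoters. Macrophages grown in M-CSF alone usually carry little class II, and interferon-gamma is the classical inducer.

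The promoter boxes are shown for the genes whose transcripts are described, because they are the elements through which class II genes share their regulation. RefSeq promoter windows (GRCm38.p6, from 250 bases before to 50 bases after each annotated start) were present for 6 of the 9 measured genes, and not for H2-Ab1, Cd74 and Ciita. Each stretch below runs 72 bases from 5′ to 3′ on the strand of the gene, and capitals mark matches to TGATTGG for the Y box and GNAACNNAT for the X box.
H2-Eb1: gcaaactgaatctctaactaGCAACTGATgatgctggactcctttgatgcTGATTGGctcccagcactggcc
H2-DMb1: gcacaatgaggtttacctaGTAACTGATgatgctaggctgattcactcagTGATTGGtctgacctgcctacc
H2-Ob: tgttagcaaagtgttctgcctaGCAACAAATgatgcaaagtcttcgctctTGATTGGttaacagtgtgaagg
H2-DMb2: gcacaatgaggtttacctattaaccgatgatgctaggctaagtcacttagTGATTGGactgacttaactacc
H2-Aa: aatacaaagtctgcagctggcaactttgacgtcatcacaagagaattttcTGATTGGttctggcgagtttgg

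All of these stretches lie on chromosome 17. They are chr17:34305756-34305827 (plus strand) for H2-Eb1, chr17:34153078-34153149 (plus) for H2-DMb1, chr17:34238796-34238867 (plus) for H2-Ob, chr17:34145107-34145178 (plus) for H2-DMb2 and chr17:34287852-34287923 (minus) for H2-Aa. The Y box began at position -61 from the start in H2-Eb1, -63 in H2-DMb1, -59 in H2-Ob, -92 in H2-DMb2 and -50 in H2-Aa. In H2-Eb1 21 bases separated the boxes, in H2-DMb1 22 and in H2-Ob 19. The letters of both motifs were chosen with these sequences in view, both strands were searched, and the matches shown do not overlap. Of 32851 mouse windows, 7.82% held the Y letters, 7.92% the X letters and 0.849% both. An X match with a Y match starting within 40 bases after it, on the strand of the gene, occurred in 8 windows (0.0244%). These were the windows of H2-Eb1, H2-DMb1, H2-Ob, H2-Eb2, BC051142, Cdv3, Gm51604 and Gm41251. Letters with a further G at the end of the X box were also tried, and left 5 such windows, while the shorter AACNNAT lay on the strand of the gene in every stretch printed except that of H2-Aa. It also lay on either strand in 27.6% of all windows. In H2-Aa, bases 20 to 28 read gcaactttg, at the positions of the X box in the H2-DMb1 stretch. They depart from the X letters only at the end. A stretch without marked X letters may thus still hold an X box, which was not tested. The 2 windows of H2-DMa held no Y match, and 1 of them held an X match at -227. H2-DMb1 and H2-DMb2, neighbouring copies of a β chain gene, differed at 9 of the 72 bases. Of these, G20T and T25C (counted from 1 at the 5′ end, the H2-DMb1 base first) lay inside the X box of H2-DMb1.

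Library totals ranged from 47779990 to 53567289 counts in KO and from 39601341 to 61556269 in WT. WT replicates 1 and 2 stood apart from the other 6 libraries, with 76.4% and 75.8% uniquely mapped reads against 83.8 to 87% elsewhere, so results are given with and without them. Ogfrl1 itself had 145.7 to 197.3 CPM (reads scaled to library size) in KO and 134.9 to 284.2 CPM in WT. Its whole-gene counts overlapped and did not check the genotype labels. All 10 macrophage markers listed (Csf1r, Adgre1, Lyz2 and others) had rows, and they summed to 19881 to 21651 CPM in KO and 17345 to 20605 CPM in WT.

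The class II transcripts were scarce to moderate in these macrophages. On the deposited scale per length, log2 FPKM, Cd74 had the highest level, with 4.76 ± 0.39 in KO and 4.49 ± 0.44 in WT (mean ± SD, n = 4 each). H2-Aa followed at 3.88 ± 0.44 in KO and 3.61 ± 0.62 in WT, and H2-Ab1 at 3.65 ± 0.42 log2 FPKM in KO and 3.37 ± 0.53 in WT. These are the invariant chain and the α and β chains of the I-A molecule. H2-DMb1 had 3.38 ± 0.41 log2 FPKM in KO and 3.03 ± 0.55 in WT, and H2-Eb1 had 3.02 ± 0.52 in KO and 2.55 ± 0.76 in WT. H2-DMa stood at 2.75 ± 0.18 log2 FPKM in KO and 2.49 ± 0.43 in WT, and H2-DMb2 at 0.82 ± 0.38 in KO and 0.84 ± 0.59 in WT. The 2 lowest were Ciita, the coactivator, and H2-Ob, the β chain of DO. Ciita had -1.54 ± 0.62 log2 FPKM in KO and -1.59 ± 0.71 in WT, and H2-Ob had -1.96 ± 0.43 in KO and -2.08 ± 0.65 in WT.

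This order of mean levels was the same in KO and in WT. Between neighbours in it, the means of Cd74 and H2-Aa, of H2-DMa and H2-DMb2, and of H2-DMb2 and Ciita lay further apart than either gene's SD in each group. The other neighbouring pairs did not differ beyond their spread. Averaged over the 8 libraries, the log2 FPKM of Cd74 lay at percentile 73.8 of all 11541 genes and that of H2-Aa at 57.1, while Ciita lay at 4.70 and H2-Ob at 2.89. Read numbers ran from 915 to 2586 per library for Cd74, from 51 to 211 for Ciita and from 11 to 50 for H2-Ob.

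None of the 9 genes passed the test between genotypes. By edgeR's quasi-likelihood test with Benjamini-Hochberg adjustment over 11541 genes, 0 of the 9 were called at an adjusted p under 0.05, against a background of 0% of all genes. At an unadjusted p under 0.05 the count was also 0 of 9, where 752 genes (6.52%) reached that level, 2.01% of all genes higher and 4.51% lower in KO. DESeq2 and limma-voom each called 0 of the 9, with 0 of 9 at an unadjusted p under 0.05, beside 0.00866% and 0% of all genes called and 10.2% and 4.64% at the unadjusted level. CPM values of KO and WT overlapped for all 9, while 2.64% of all genes had groups without overlap. The fitted log2 fold change of KO over WT was positive for 7 of 9, beside 49.3% of all genes, with a median of 0.21 against -0.0047 over all genes. Without WT replicates 1 and 2 it was negative for 9 of 9, beside 50.6% of all genes, with a median of -0.12 and an edgeR adjusted p of 1 for each. In that fit 0 of 9 had an unadjusted p under 0.05, beside 0.996% of all genes. Its WT side rests on replicates 3 and 4 only. KO replicate 2 was kept, although it and WT replicates 1 and 2 were the 3 lowest libraries for 8 of the 9 genes. The signs thus depend on which low libraries are left out and give no direction for the genotype.

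**Figure D1:**
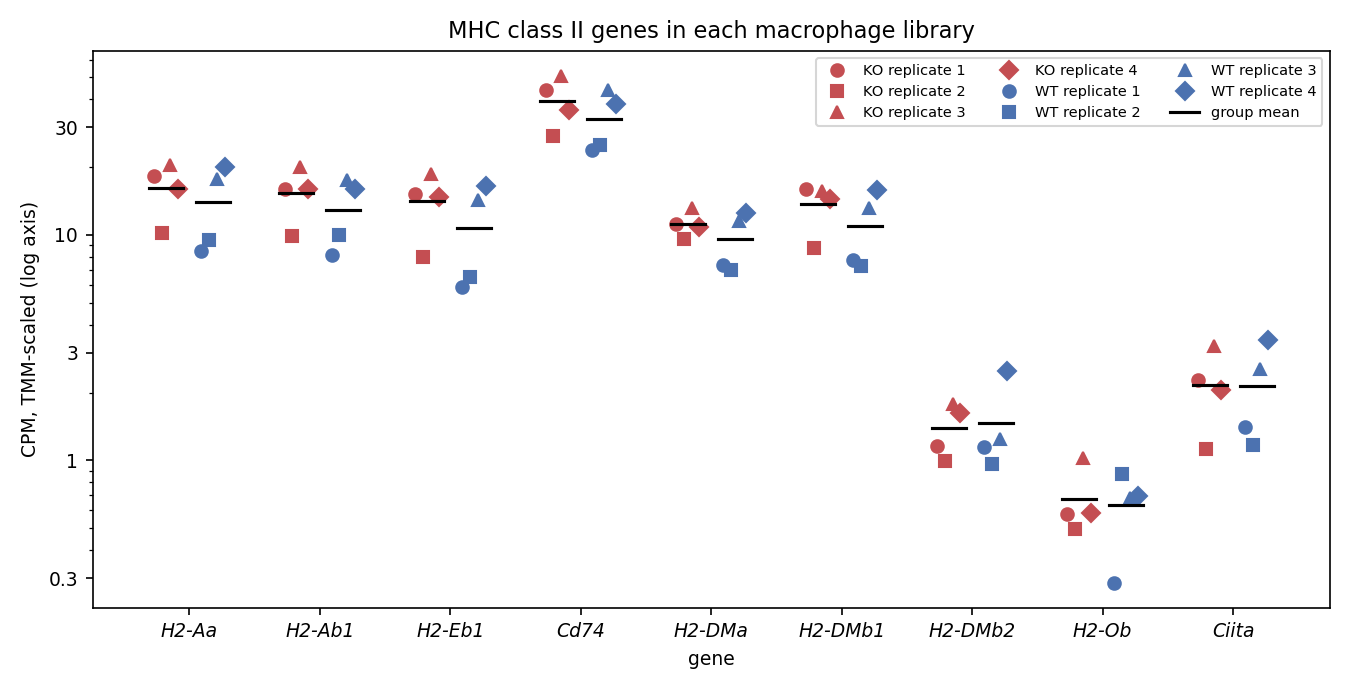
CPM on a log axis (vertical) of each of the 9 genes (horizontal) in 4 KO libraries, left in each pair, and 4 WT libraries; points are libraries, shaped by replicate, and black bars are group means. KO and WT points overlap for all 9 genes, and KO replicate 2 is the lowest KO point for each.

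The α and β chains of the classical molecules come first. H2-Aa (chr17:34282751-34287771, minus strand, mm10), the α chain of I-A, had 18.3, 10.2, 20.3 and 16.1 CPM in KO replicates 1 to 4, against 8.52, 9.55, 17.8 and 20.04 CPM in WT replicates 1 to 4. KO replicate 2 and WT replicates 1 and 2 were low, and the other 5 libraries lay close together. The log2 fold change of KO over WT was 0.21 (SE 0.32, 95% CI -0.51 to 0.92, edgeR adjusted p = 0.658). Without WT replicates 1 and 2 it was -0.22.

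H2-Ab1 (chr17:34263227-34269418, plus strand), the β chain that pairs with H2-Aa, had 15.9, 9.90, 19.9 and 15.9 CPM in KO, against 8.18, 9.96, 17.5 and 16.01 CPM in WT. The same 3 libraries were lowest. Its log2 fold change was 0.25 (SE 0.28, 95% CI -0.39 to 0.89, edgeR adjusted p = 0.554), and -0.12 without WT replicates 1 and 2. H2-Eb1 (chr17:34305867-34316674, plus strand), the β chain of I-E, had 15.2, 7.99, 18.6 and 14.7 CPM in KO, against 5.90, 6.53, 14.2 and 16.5 CPM in WT. Here the span was widest among the classical chains, 3.14-fold between the highest library, KO replicate 3, and the lowest, WT replicate 1. The log2 fold change of H2-Eb1 was 0.38 (SE 0.38, 95% CI -0.47 to 1.24, edgeR adjusted p = 0.507), and -0.12 without WT replicates 1 and 2. The α chain gene of I-E, H2-Ea, and H2-Eb2 were not analysed here.

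Cd74 (chr18:60803849-60812652, plus strand), the invariant chain that escorts class II molecules through the secretory pathway, had 43.9, 27.4, 50.7 and 35.8 CPM in KO, against 23.9, 25.1, 44.2 and 38.1 CPM in WT. KO replicate 2 stood near the low WT libraries, and the groups overlapped. The log2 fold change was 0.26 (SE 0.25, 95% CI -0.30 to 0.82, edgeR adjusted p = 0.489), against -0.06 without WT replicates 1 and 2. In GENCODE M21, 12 exonic bases of Cd74 are shared with the microRNA gene Mir5107.

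The genes of peptide exchange encode DM and DO. H2-DMa (chr17:34122832-34139101, plus strand), the α chain of DM, had 11.2, 9.64, 13.1 and 10.8 CPM in KO, against 7.39, 6.97, 11.5 and 12.6 CPM in WT. Only WT replicates 1 and 2 were below all KO libraries, and the log2 fold change was 0.21 (SE 0.21, 95% CI -0.25 to 0.68, edgeR adjusted p = 0.499). H2-DMb1 (chr17:34153191-34160229, plus strand), a β chain of DM, had 15.9, 8.74, 15.6 and 14.4 CPM in KO, against 7.79, 7.29, 13.2 and 15.8 CPM in WT. Its log2 fold change was 0.31 (SE 0.29, 95% CI -0.34 to 0.96, edgeR adjusted p = 0.486). Without WT replicates 1 and 2 the value was -0.11 for H2-DMa and -0.08 for H2-DMb1.

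H2-DMb2 (chr17:34145416-34151095, plus strand), the other β chain copy, was far scarcer, with 1.16, 0.994, 1.78 and 1.62 CPM in KO, against 1.15, 0.966, 1.25 and 2.49 CPM in WT. WT replicate 4 was the highest library and the groups overlapped. The log2 fold change was -0.09 (SE 0.33, 95% CI -0.84 to 0.66, edgeR adjusted p = 0.858), and -0.43 without WT replicates 1 and 2. Transcripts of H2-DMb1 and H2-DMb2 in GENCODE M21 share 1035 of 1080 aligned bases (95.8%), with an identical run of 221 bases. How the authors' counting divided reads between these copies is not given in the sources used here, so the counts of both genes are uncertain.

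H2-Ob (chr17:34238905-34245908, plus strand), the β chain of DO, which restrains DM, had 0.581, 0.497, 1.02 and 0.586 CPM in KO, against 0.287, 0.874, 0.683 and 0.696 CPM in WT. These rest on few reads. KO replicate 3 had 50 (95% Poisson interval 37.1 to 65.9) and WT replicate 1 had 11 (5.49 to 19.7), intervals that cover counting error only. The log2 fold change was 0.06 (SE 0.35, 95% CI -0.73 to 0.86, edgeR adjusted p = 0.908), and -0.04 without WT replicates 1 and 2.

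Ciita (chr16:10480072-10527640, plus strand), the class II coactivator, had 2.26, 1.12, 3.21 and 2.05 CPM in KO, against 1.41, 1.17, 2.55 and 3.41 CPM in WT. The lowest library was KO replicate 2 and the highest was WT replicate 4, 3.04-fold apart. The log2 fold change was -0.00025 (SE 0.37, 95% CI -0.85 to 0.85, edgeR adjusted p = 1), and -0.47 without WT replicates 1 and 2. Ciita shares 111 exonic bases with Dexi on the opposite strand, and the strand setting of the counting is not given in the sources used here. Dexi had 3.90, 4.10, 4.07 and 4.71 CPM in KO, against 2.51, 2.23, 3.81 and 4.00 CPM in WT.

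**Figure D2:**
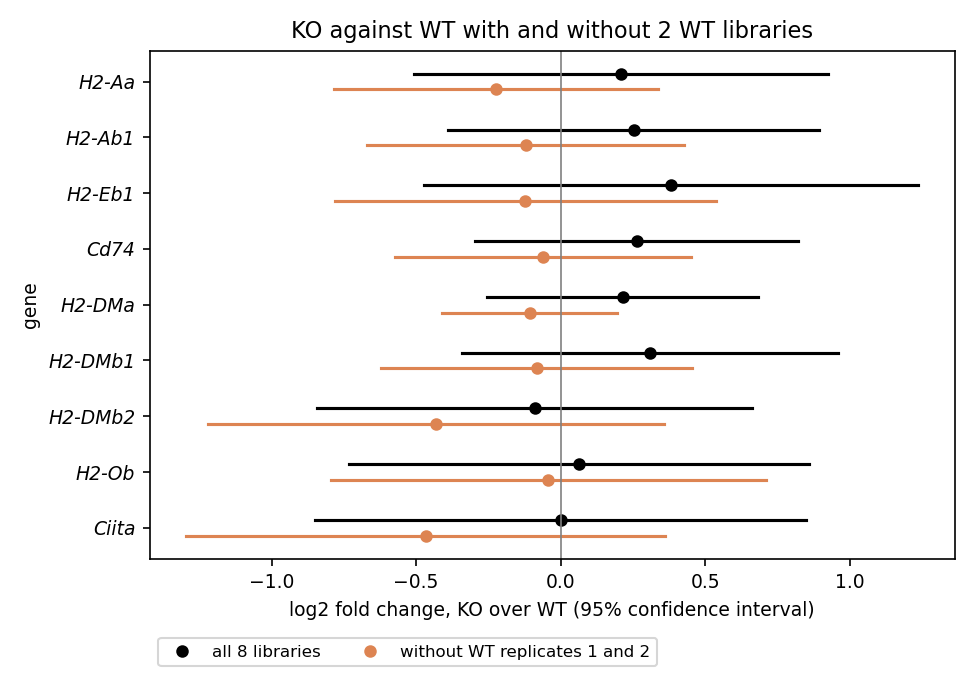
Log2 fold change of KO over WT (horizontal axis) for the 9 genes, as points with 95% confidence intervals, with all 8 libraries and without WT replicates 1 and 2. Every interval spans 0 in both fits; 7 of 9 points are positive with all libraries and 0 of 9 without the 2 WT libraries.

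In the authors' deposited table the log2 fold changes of these genes ran from -0.09 for H2-DMb2 to 0.39 for H2-Eb1. The lowest false discovery rate among them in the authors' deposited table was 0.517, for H2-DMb1.

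What separated the libraries was common to nearly all of these genes and did not follow the genotype label. KO replicate 2, WT replicate 1 and WT replicate 2 were the 3 lowest libraries for 8 of the 9 genes, H2-Ob being the exception. The same 3 libraries were also the lowest for 3354 of all 11541 genes (29.1%). KO replicate 2 was the lowest KO library for 9 of 9 genes, and KO replicate 3 the highest for 8 of 9. The share of all genes with this order within KO is not given here, so these counts are a description. Summed over the 9 genes, KO replicates 1 to 4 had 124.5, 76.4, 144.3 and 112.0 CPM, against 64.5, 68.4, 122.9 and 125.6 CPM in WT. In bulk libraries, fewer cells with a transcript and less of it per cell cannot be told apart.

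Ribosomal and mitochondrial percentages set apart the same 3 libraries as these sums did. Ribosomal RNA took 7.16, 2.71, 8.24 and 7.21% of reads in KO, against 1.79, 1.83, 4.21 and 9.1% in WT. It was lowest in the 3 libraries with the lowest class II sums. Among the others the order differed, with ribosomal RNA highest in WT replicate 4 and the class II sum highest in KO replicate 3. Mitochondrial reads were 1.83, 3.17, 1.76 and 1.6% in KO, against 6.07, 7.03, 2.41 and 1.49% in WT, highest in those 3 libraries, and their part in the result was not tested. With the ribosomal percentage as a covariate in edgeR, 4 of 9 log2 fold changes were positive, beside 48% of all genes, with a median of -0.03. In that fit 0 of 9 were called, as were 0% of all genes (lowest edgeR adjusted p of the 9 = 0.568).

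Markers of other class II-bearing cells were examined, since dendritic cells and B cells can be present in marrow cultures. Of 13 dendritic cell markers 8 had rows, and Zbtb46, Ccr7, Xcr1, Clec9a and Siglech were not analysed here. The 8 summed to 14.5, 11.7, 14.05 and 13.04 CPM in KO, against 7.94, 9.91, 13.2 and 17.8 CPM in WT, a sum that was lowest in the same 3 libraries. Those were the 3 lowest libraries for 3 of the 8 genes, Flt3, Itgax and Batf3, and not for Irf4, Cd209a, Kmo, Fscn1 and Ccl22. Over all genes the share was 29.1%. Flt3, the cytokine receptor of dendritic cell precursors, had 0.423 to 1.33 CPM in KO and 0.460 to 0.803 CPM in WT. Of 10 B cell markers 1 had a row, Cd22, with 2.97 to 3.95 CPM in KO and 2.33 to 4.11 CPM in WT, and 0 of 6 T cell markers had one. The part of dendritic cells or B cells in the class II levels was not tested.

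**Figure D3:**
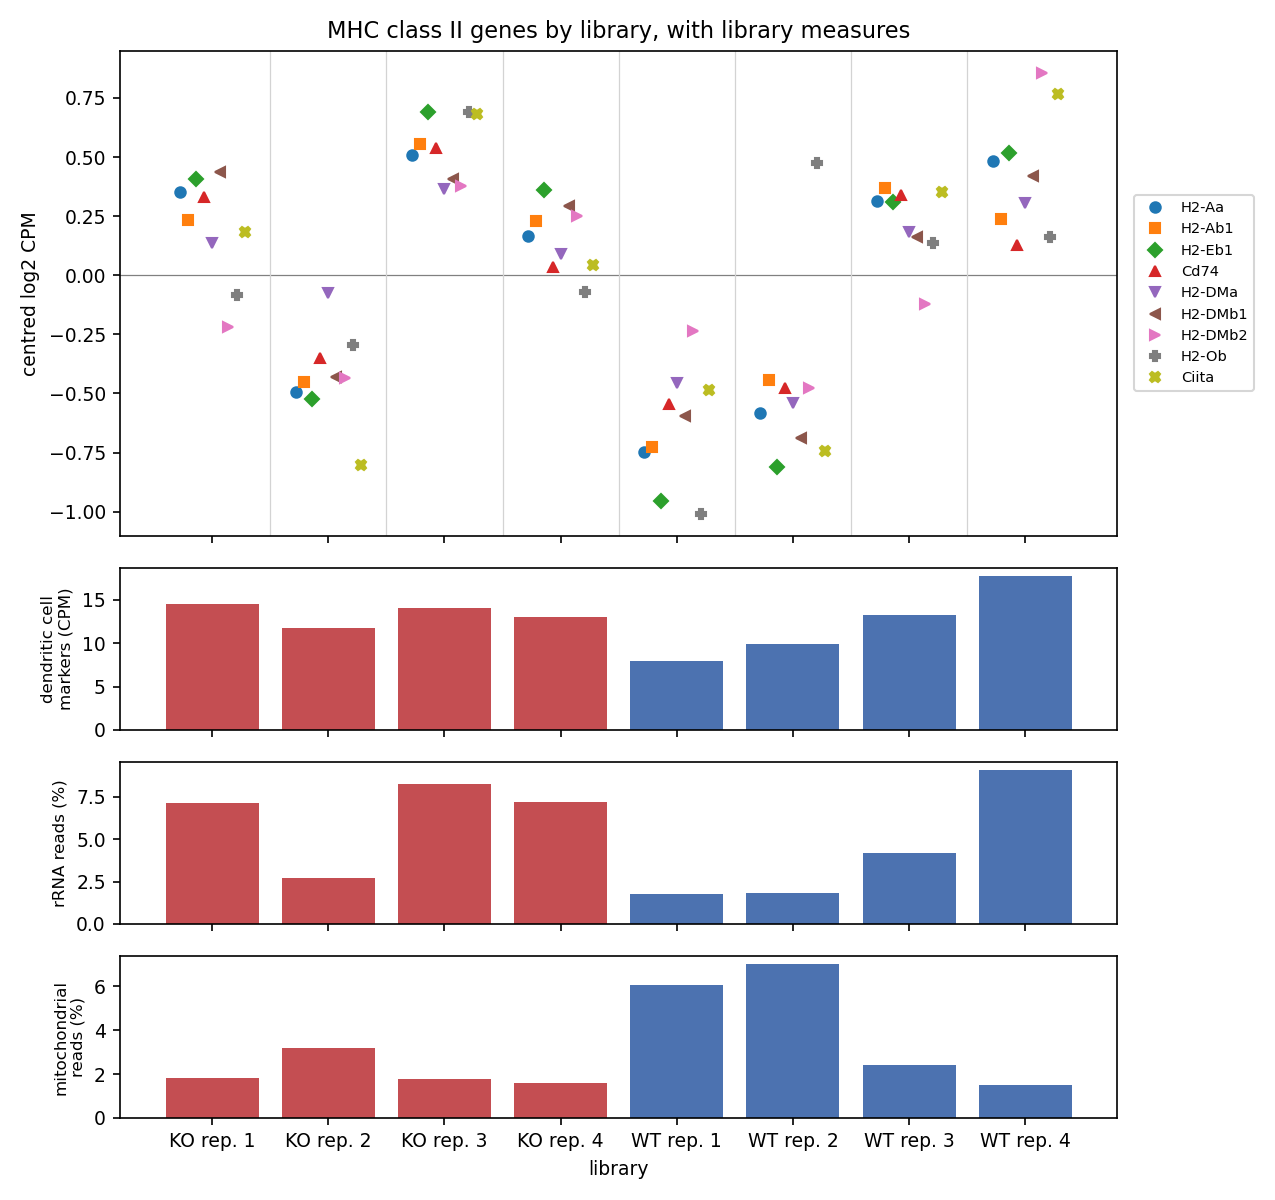
Top, log2 CPM of each of the 9 genes minus its mean over 8 libraries (1 marker per gene), for KO replicates 1 to 4 and then WT replicates 1 to 4; below, the summed CPM of 8 dendritic cell markers and the percentages of ribosomal RNA and mitochondrial reads. Most markers of KO replicate 2, WT replicate 1 and WT replicate 2 lie below 0, where the dendritic cell sum and ribosomal RNA are lowest and mitochondrial reads highest; the sum follows 3 of its 8 genes in this.

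How closely the genes kept step was measured as the root mean square difference of centred log2 CPM over the 8 libraries. The yardstick was the mean pattern of H2-Aa, H2-Ab1, H2-Eb1 and Cd74, leaving out the gene itself. H2-Aa lay 0.08 from it, H2-Ab1 0.10, H2-DMb1 0.12, Cd74 0.17, H2-Eb1 0.20 and H2-DMa 0.21. Ciita lay further away at 0.24, H2-DMb2 at 0.37 and H2-Ob at 0.44, the 3 genes with the fewest reads. All points share library depth and composition, so these distances are a description.

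Ratios taken within a library set pairs of class II genes beside each other. Of these pairs, H2-Aa with H2-Ab1 and H2-DMa with H2-DMb1 are partner chains. For H2-Aa, Cd74 and H2-Eb1 over H2-Ab1 the SDs of the ratios were smaller than those of the single genes. The log2 count ratio of H2-Aa over H2-Ab1 was 0.07 ± 0.09 in KO and 0.09 ± 0.17 in WT (SD, n = 4 each, exact permutation p = 0.8). Cd74 over H2-Ab1 was 1.36 ± 0.14 in KO and 1.37 ± 0.13 in WT (exact permutation p = 1, n = 4 each). H2-Eb1 over H2-Ab1 was -0.15 ± 0.11 in KO and -0.33 ± 0.28 in WT (exact permutation p = 0.257, n = 4 each). For the DM chains, H2-DMa over H2-DMb1 was -0.26 ± 0.29 in KO and -0.17 ± 0.12 in WT (exact permutation p = 0.571). H2-DMb2 over H2-DMb1 was -3.30 ± 0.32 in KO and -2.94 ± 0.33 in WT (exact permutation p = 0.2). Adjusted over these 5 two-sided tests, the permutation p was 0.643 or more, and the smallest p that 70 assignments allow is 0.0286.

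The SD between replicates, not adjusted for abundance, was wider for class II genes than for 8 lists of other immune genes. Dendritic cell markers, far scarcer genes, had the same median SD in KO only, and stromal markers passed it in both groups. The median log2 CPM was 3.53 for class II genes and -0.41 for dendritic cell markers. It was 3.55 for interferon-stimulated genes and 4.79 to 9.63 for the other immune lists. The median SD of log2 CPM over the 9 genes was 0.42 in KO and 0.59 in WT, against 0.13 in KO and 0.24 in WT over all 11541 genes. Over 86 genes of 8 immune lists it was 0.12 in KO and 0.27 in WT. None of those 86 exceeded the class II median in KO, and 4 did in WT, namely Bst2 (0.72), B2m (0.72), Ifit3 (0.61) and C1qa (0.60). By list, the median SD was 0.20 in KO and 0.30 in WT for MHC class I genes, 0.18 in KO and 0.34 in WT for interferon-stimulated genes, and 0.10 in KO and 0.13 in WT for macrophage markers. The 8 dendritic cell markers, most of them at low counts, had a median SD of 0.42 in KO, as the class II genes did, and 0.42 in WT. For 5 stromal markers it was 0.86 in KO and 1.41 in WT, wider than for class II. For 8 neutrophil markers it was narrower, 0.17 in KO and 0.21 in WT. The B cell marker Cd22 was also narrower, with an SD of 0.18 in KO and 0.37 in WT.

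Among the class II genes, Ciita had the widest SD in KO (0.62, percentile 98.7 of all genes) and H2-Eb1 in WT (0.76, percentile 97.5). H2-DMa was the steadiest in both groups, with 0.18 in KO (percentile 69.8) and 0.43 in WT (percentile 82.3). Low counts alone widen such an SD, so each gene's biological coefficient of variation in edgeR was set against the trend at its abundance. It was 2.07 times the trend for H2-Eb1, 1.79 times for H2-Aa and 1.63 times for Cd74, but 1.15 times for both H2-DMa and H2-Ob. By list, the median coefficient was 0.30 for class II genes at a median trend of 0.18. For dendritic cell markers it was 0.25 at a trend of 0.26, and for stromal markers 0.63 at 0.18. For MHC class I genes it was 0.161 at 0.157, and for interferon-stimulated genes 0.180 at 0.181. Without KO replicate 2 the median SD in KO was 0.19, and without WT replicates 1 and 2 the median SD in WT was 0.15. The WT value rests on replicates 3 and 4 only. The libraries left out were the lowest for most of these genes, so narrower SDs follow from that choice. In the MHC class I list, 11 of 15 genes had KO replicate 2 and WT replicates 1 and 2 as their 3 lowest libraries, as 8 of the 9 class II genes did. B2m, the light chain of class I, went the other way, with 391, 597, 432 and 408 CPM in KO, against 985, 961, 510.3 and 358 CPM in WT.

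**Figure D4:**
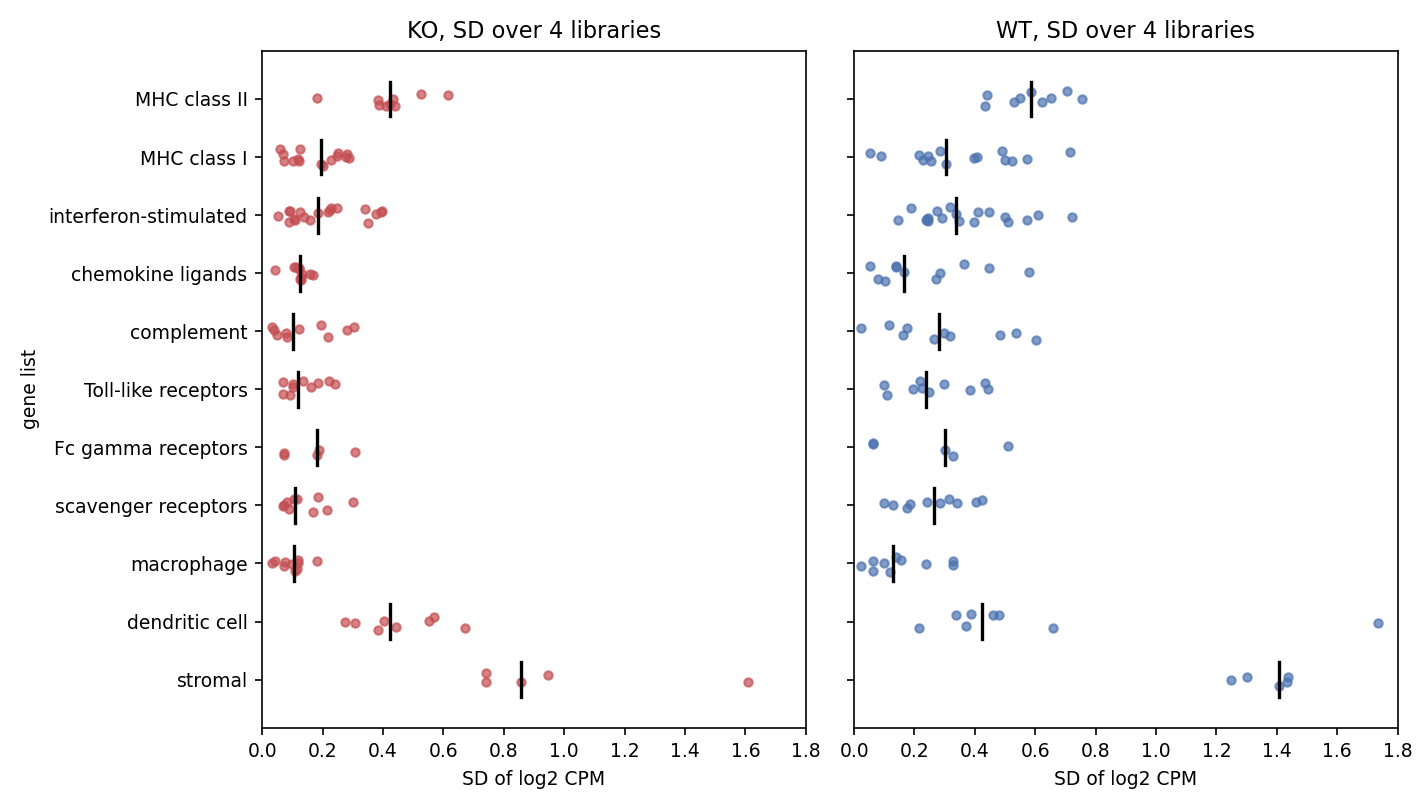
SD of log2 CPM over 4 libraries (horizontal axes) for the genes of the class II set and of 8 immune lists, KO left and WT right; points are genes and black bars are list medians, with dendritic cell and stromal markers at the bottom. Class II medians of 0.42 in KO and 0.59 in WT lie to the right of the 8 immune lists, while the dendritic cell median is equal in KO at 0.42 and the stromal medians are higher in both. The SDs are not adjusted for abundance, and dendritic cell markers are far scarcer than class II genes.

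None of the listed genes that act on class II genes or molecules passed the test between genotypes. In a list of 34 such genes with rows, edgeR called 0 at an adjusted p under 0.05. At an unadjusted p under 0.05 it found 2, Spi1 and Tgfb1, against 6.52% of all genes, and 0 of the 34 without WT replicates 1 and 2, where 0.996% of all genes did so. DESeq2 called 0 of the 34, with 4 at an unadjusted p under 0.05 beside 10.2% of all genes. Limma-voom also called 0, with 3 at that level beside 4.64% of all genes. Median log2 fold changes were 0.06 for 18 transcription genes, 0.02 for 10 processing genes and 0.04 for 6 co-stimulatory genes.

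Of the factors on the X box, Rfx5, the DNA-binding subunit of the RFX complex, averaged 13.9 ± 0.576 CPM in KO and 15.5 ± 0.755 CPM in WT (SD, n = 4 each). Rfxank, its ankyrin-repeat partner, had 8.05 ± 0.519 CPM in KO and 6.55 ± 1.07 CPM in WT, and Rfxap had 10.03 ± 0.772 CPM in KO and 9.87 ± 0.326 CPM in WT. Nfyb, a subunit of the Y box factor NF-Y, had 29.3 ± 3.21 CPM in KO and 37.3 ± 8.504 CPM in WT. Spi1, the myeloid factor PU.1, had 210.4 ± 16.9 CPM in KO and 178 ± 18.8 CPM in WT. Tgfb1, a cytokine that represses Ciita, had 315 ± 12.3 CPM in KO and 277 ± 23.1 CPM in WT. The edgeR adjusted p was 0.404 for Rfx5, Rfxank, Nfyb, Spi1 and Tgfb1.

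Downstream, Ctss, the protease cathepsin S that trims the invariant chain, had 1298 ± 78.0 CPM in KO and 1454 ± 78.3 CPM in WT. Ifi30, a lysosomal thiol reductase, had 192 ± 5.33 CPM in KO and 175 ± 21.6 CPM in WT. March1, a ubiquitin ligase that removes class II molecules from the surface, had 25.8 ± 1.02 CPM in KO and 31.3 ± 6.65 CPM in WT. The co-stimulatory receptor Cd40 had 13.1 ± 0.487 CPM in KO and 10.4 ± 2.69 CPM in WT, and the ligand Cd86 had 8.05 ± 0.219 CPM in KO and 9.06 ± 1.55 CPM in WT. None of these passed the edgeR test (adjusted p = 0.404 to 0.435). The 18 transcription genes had a median SD of 0.10 in KO and 0.16 in WT on the log2 CPM scale, below the class II medians of 0.42 in KO and 0.59 in WT. They were also more abundant, with a median log2 CPM of 6.10 against 3.53 for class II. Socs1, a scarce gene of that list, had SDs of 0.48 in KO and 0.94 in WT, above both class II medians.

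Outside the set, the genes whose pattern over the 8 libraries was nearest to the mean of H2-Aa, H2-Ab1, H2-Eb1 and Cd74 were Lrrc56, Zfp771, Celsr2, Ypel3, Tbc1d2, Phldb1, Ppp1r37 and Mfng. Their root mean square differences from it in centred log2 CPM were 0.12 to 0.14. Only Lrrc56 and Celsr2 were again among the nearest 8 when WT replicates 1 and 2 were left out. Nearest to Ciita was S1pr4, a sphingosine 1-phosphate receptor of leukocytes, at 0.09. S1pr4 had 0.581, 0.276, 0.798 and 0.450 CPM in KO, against 0.340, 0.253, 0.547 and 0.825 CPM in WT. These levels are as low as those of H2-Ob and rest on few reads. The gene was picked as the nearest of all those ranked over 8 libraries. Krba1, Adgrl1, Col4a5 and Engase followed at 0.24 to 0.25. S1pr4 and Krba1 were again among the nearest 5 without WT replicates 1 and 2.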

How the data were processed

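Groups were taken from the genotype label, and replicates were numbered in accession order. Counts are the authors' deposited raw reads per gene. STAR and mm10 are named in the submitters' processing notes, and featureCounts is named per the file headers. The sources used here give no tool version, annotation release, strand setting or row filter. In the deposited read statistics, 12.69 to 14.01% of reads are labelled coding-rev and 0.09 to 0.11% coding. The labels do not say how read orientation was set, so these shares are no measure of antisense transcripts. The deposited log2 FPKM values are the authors' counts scaled to gene length and depth. Log2 fold change and false discovery rate (an adjusted p-value) are the authors' deposited comparison, by an unstated tool. Read percentages are also deposited.

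KO was tested against WT over all genes with edgeR 4.0.16 (quasi-likelihood, TMM, two-sided, Benjamini-Hochberg adjustment, R 4.3.3). A gene was called at an adjusted p under 0.05. CPM used TMM-scaled library sizes, and log2 CPM a prior count of 2. Single ratios had exact permutation tests. Alternatives were DESeq2 1.42.0, limma-voom (3.58.1), other factors and filters, a GC correction, a ribosomal RNA covariate and omitted libraries. The fit was tested on simulated counts. All 9 genes, 34 pathway genes and the nearest genes by pattern were named. Members and lists were chosen with earlier results of these data known.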

Additional observations from a re-analysis of the deposited data

Results flagged for a closer look

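H2-Ob in KO replicate 3, at 1.02 CPM, lay far above the other KO libraries, which had 0.497 to 0.586 CPM. The gap to its nearest neighbour was a 0.829 share of the range of the group, just past the limit for 4 samples. It was the only 1 of 18 combinations of gene and genotype to be singled out this way, and chance singles out about 1 in 20. The value rests on 50 reads (95% Poisson interval 37.1 to 65.9), against 30 reads (20.2 to 42.8) in KO replicate 4.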

How the results depend on the processing

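None of the 9 class II genes and none of the 34 pathway genes was called under any setting tried, and over all genes the calls were 0 in each setting except DESeq2, with 1. The lowest edgeR adjusted p of a class II gene was 0.147, without WT replicate 4, where 5207 of all genes had an unadjusted p under 0.05. The median log2 fold change of the class II genes was 0.09 to 0.38 when 1 library was left out, -0.12 without WT replicates 1 and 2, -0.03 with the ribosomal RNA covariate and 0.07 with a GC correction. Directions were not stable. Without WT replicates 1 and 2 the log2 fold change turned to -0.22 for H2-Aa, -0.12 for H2-Ab1, -0.12 for H2-Eb1, -0.11 for H2-DMa, -0.083 for H2-DMb1, -0.042 for H2-Ob and -0.062 for Cd74. With the covariate it turned to -0.10 for H2-Aa, -0.026 for H2-Ab1 and -0.083 for H2-Ob. Ciita turned to 0.0013 with RLE factors, 0.026 with upper-quartile factors, 0.012 in DESeq2 and 0.0011 with a filter of 1 CPM in 4 libraries, which dropped H2-Ob. Leaving out 1 library gave -0.25 to 0.32 for Ciita (0.21 without KO replicate 2, 0.03 without KO replicate 4, 0.09 without WT replicate 3). It gave -0.24 to 0.30 for H2-DMb2 (0.04 without KO replicate 2, 0.30 without WT replicate 4) and -0.21 to 0.23 for H2-Ob (-0.21 without KO replicate 3, -0.16 without WT replicate 1). The median SD ranged from 0.19 to 0.51 in KO and from 0.57 to 0.67 in WT when 1 library was left out. It was 0.15 in WT without replicates 1 and 2, an alternative chosen after seeing the data. The cause of these shifts was not tested. No paired analysis was possible because the title numbers differ in every library and replicate numbers were given in accession order. Depth limits H2-Ob most, with 11 to 50 reads.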
